A study of Drosophila melanogaster with 6 samples.

Results

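The Brahma complexes are the SWI/SNF-type nucleosome remodelling complexes of Drosophila, and the transcripts of their subunits were examined after depletion of a different remodelling ATPase, ISWI. The genes were brm, mor, Snr1, Bap60, Bap111, Bap55, osa, polybromo, Bap170 and e(y)3, and a probe set was taken for a gene only where the platform annotation gave that symbol and no other. This rule gave 8 probe sets for 8 of the 10 genes, out of 11982 genes with a probe set of 1 symbol. Bap111 and Bap55 were matched to no probe set in the annotation used and were not analysed here.

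SL2 cells, a line made from late Drosophila embryos that resembles haemocytes, the insect blood cells, took up double-stranded RNA (dsRNA) for RNA interference. The ISWI dsRNA group (3 cultures) received 10 micrograms of dsRNA against ISWI, and the GST dsRNA group (3 cultures) received the same amount against GST, the control target. All cultures were held with the dsRNA in serum-free medium for 1 hour and were harvested on day 7 without passaging, and total RNA from each was put on 1 array. Untreated cells were not among the samples, so all 6 cultures share exposure to dsRNA.

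A Brahma complex uses the energy of ATP to slide or evict nucleosomes. Some of its genes, brm among them, were first known in flies as trithorax group genes, which keep homeotic genes active. It occurs in 2 forms that share the ATPase Brahma and a core of scaffold and accessory subunits. The BAP form carries Osa, and the PBAP form carries Polybromo, Bap170 and SAYP, the product of e(y)3. ISWI belongs to the same SNF2 superfamily of ATPases but works in other complexes, with other partners.

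All values are the deposited log2 values, and 1 unit is a doubling of signal. On this scale 7364 to 7416 probe sets of each ISWI array and 7331 to 7334 of each GST array lay above 4, the level used to decide which probe sets to test. The Iswi probe set read 7.66, 7.74 and 7.16 on the ISWI arrays, against 10.53, 10.54 and 10.47 on the GST arrays, so the depleted gene matched the labels (limma adjusted p = 7.61e-06). Of 13 haemocyte markers 12 lay above the level for testing, gcm being below it. Of these 12 haemocyte markers 2 were higher (eater by 0.75, crq by 0.22) and 3 lower (NimC1 at -0.86, Pxn at -0.29, srp at -0.28). The share that passed (41.7%) was near the 41.1% of all tested genes. For Pxn the groups overlapped, and its other probe set (-0.21) did not pass. The germline genes vas and bam lay below the level of 4 on every array. The difference between 3' and 5' control probe sets, a sign of RNA quality, was higher on ISWI replicate 2 (2.26 for eIF-4a and 1.06 for actin) than on the other 5 arrays (at most 1.91 and 0.55). Some markers of other cell types also differed between the groups. The summed linear signal of 4 crystal cell markers was 7126 to 7915 on ISWI arrays, against 3722 to 4179 on GST arrays, with PPO1 and PPO2 higher while lz stayed near the level of 4 and peb below it. That of 3 lamellocyte markers was 677 to 818 on ISWI arrays, against 452 to 483 on GST arrays. This sum was mostly PPO3, which was higher by 0.66, while ItgaPS4 and atilla did not pass the filter. Both read higher on every ISWI array than on every GST array, with group means below the level of 4. That of 3 neuronal markers was 175 to 209 on ISWI arrays, against 216 to 270 on GST arrays. Of these, brp was lower (-0.29), elav (-0.39) did not pass, and nSyb lay below the level. The part of these cell types in the values below was not tested. In bulk RNA, a smaller share of cells of a type and less RNA per cell cannot be told apart.

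Transcripts of the Brahma ATPase and of core subunits Moira and Bap60 fell after ISWI dsRNA, each by less than 1.5-fold, while Snr1 and the subunits that tell BAP and PBAP apart did not pass the test. All 8 probe sets lay above the level on all 6 arrays, so all were tested. Of these, 3 were lower, 0 higher and 5 not past the threshold, a limma adjusted p of 0.05 over 7390 probe sets. Across all tested probe sets 40.2% passed, 22.1% higher and 18.1% lower in the ISWI group. Across the 6011 tested genes of 1 symbol 41.1% passed, 23.4% higher and 17.6% lower. The 3 of 8 subunits that passed (37.5%) are thus a share near that of all genes. The median log2 fold change was -0.17 over the 8 subunits and 0.03 over all tested genes, and that of 6 subunits was negative, as for 46.2% of all tested genes.

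**Figure D1:**
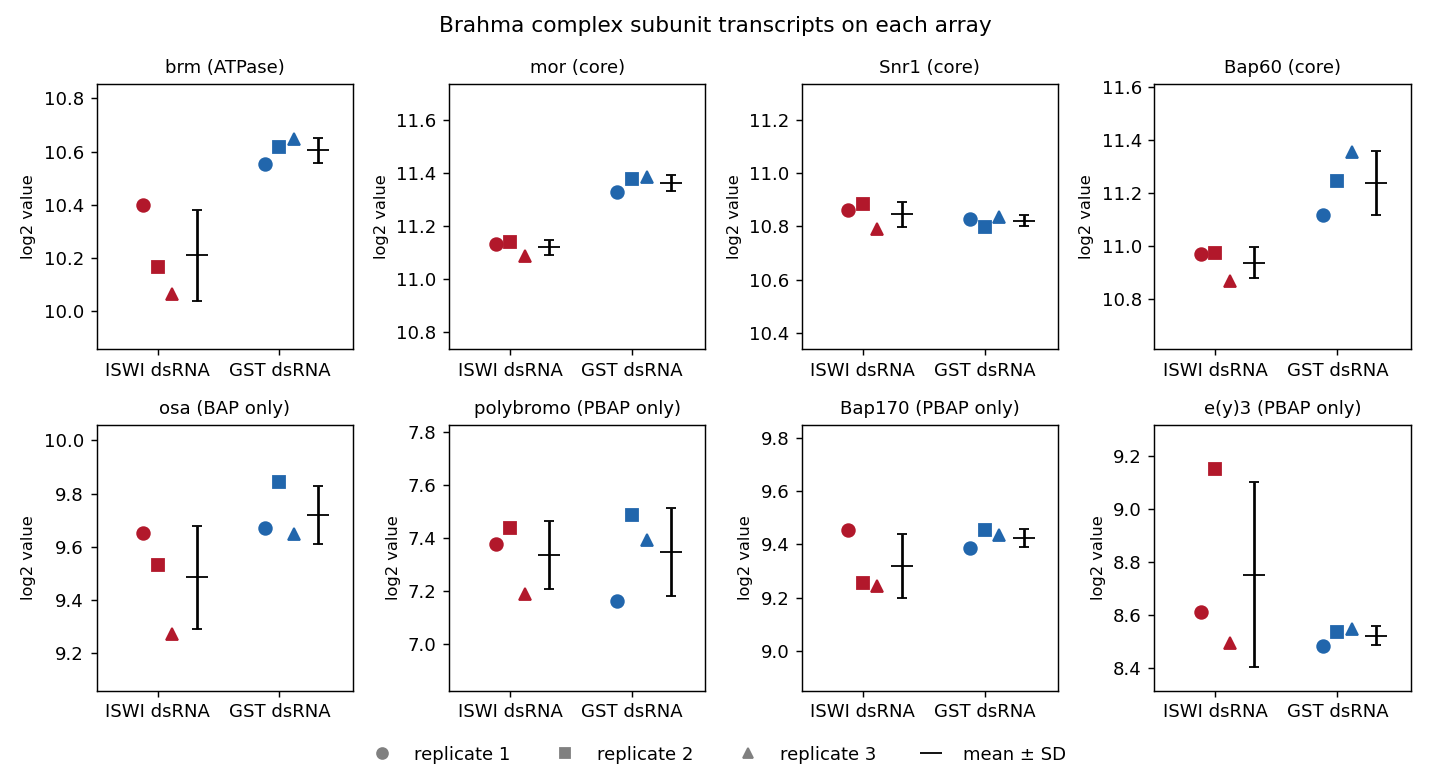
Log2 value of each Brahma complex subunit on each array, with ISWI dsRNA (red) left of GST dsRNA (blue), 1 symbol shape per replicate number, black bars for mean ± SD (n = 3 each) and every panel spanning 1 log2 unit. The ISWI arrays lie below all GST arrays for brm, mor and Bap60, and the groups overlap for the other 5 subunits.

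The ATPase gene brm, whose product is the motor of both complexes, had the largest fall of the 8. Its probe set (1636831_s_at, on arm 3L) read 10.40, 10.17 and 10.07 on the ISWI arrays, against 10.55, 10.62 and 10.65 on the GST arrays. Every ISWI array was below every GST array, and the ISWI arrays were spread over 0.33 log2 units, against 0.09 for the GST arrays. The log2 fold change was -0.39 (standard error 0.087, 95% interval -0.60 to -0.19, limma adjusted p = 0.00905). In linear terms brm signal with ISWI dsRNA was 76.1% of that with GST dsRNA, with an interval of 66.1% to 87.5%. Among all tested probe sets, 11.3% had a log2 fold change as low or lower. The suffix of this probe set name marks, in the manufacturer's scheme, probes that may match more than 1 transcript, although the annotation named only brm.

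Of the core subunits, mor encodes Moira, the scaffold around which the complex assembles and a relative of human SMARCC proteins. Its probe set (1640418_at, on arm 3R) read 11.13, 11.14 and 11.09 on the ISWI arrays, against 11.33, 11.38 and 11.38 on the GST arrays. The arrays of each group lay within 0.06 log2 units of each other, and the gap between the groups was 0.19. This small spread gave mor the lowest p of the 8 subunits (limma adjusted p = 0.00434) with a smaller change than that of brm. Its log2 fold change was -0.24, or 84.5% of the GST level with a 95% interval of 78.6% to 91.0%.

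Bap60, a core subunit related to human SMARCD proteins that contact transcription factors, also fell. Its probe set (1634157_at, on the X chromosome) read 10.97, 10.97 and 10.87 on the ISWI arrays, against 11.12, 11.24 and 11.35 on the GST arrays. The groups did not overlap, and here the GST arrays were the more spread. The log2 fold change was -0.30 (standard error 0.070, limma adjusted p = 0.0113), or 81.3% of the GST level with a 95% interval of 72.6% to 90.9%. At a stricter threshold of 0.01, Bap60 did not pass, and brm and mor did.

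The core gene Snr1 encodes the fly relative of yeast SNF5 and human SMARCB1, a subunit that grips the nucleosome. It read 10.86, 10.88 and 10.79 on the ISWI arrays, against 10.83, 10.80 and 10.84 on the GST arrays (probe set 1625112_at, on arm 3R). The groups overlapped, and both were tight. The log2 fold change was 0.02 with a 95% interval of -0.09 to 0.14 (limma adjusted p = 0.733), so that the ISWI level lay between 93.9% and 110% of the GST level. That interval does not reach the estimates for mor (84.5%), Bap60 (81.3%) or brm (76.1%). The sign for Snr1 turned when the arrays were scaled again.

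**Figure D2:**
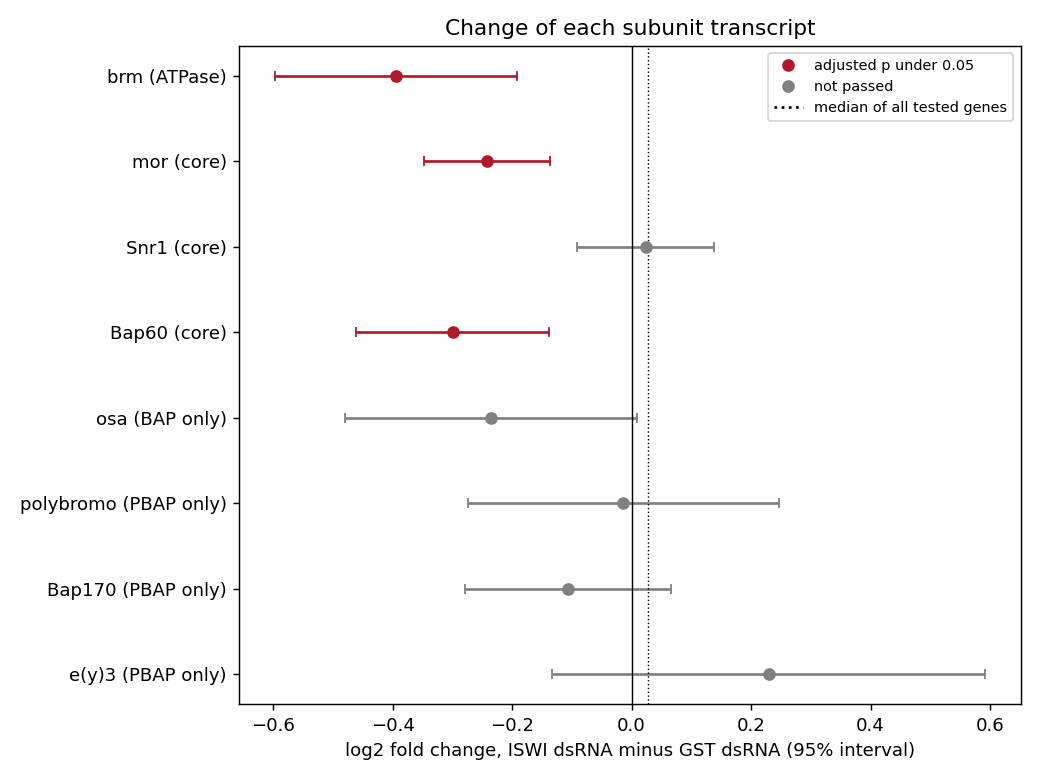
Log2 fold change of each subunit, ISWI dsRNA minus GST dsRNA, with its 95% interval from limma (3 arrays each). The intervals of brm, mor and Bap60 lie below 0, that of Snr1 is the narrowest around 0 among the subunits that did not pass, and the dotted line is the median of all tested genes at 0.03.

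The gene osa encodes the large ARID-domain protein that defines the BAP form. Its probe set (1633792_a_at, on arm 3R) read 9.65, 9.53 and 9.27 on the ISWI arrays, against 9.67, 9.84 and 9.65 on the GST arrays. ISWI replicate 1 lay at the low end of the GST range and replicate 3 well below it, and the groups overlapped. The log2 fold change of -0.24 (95% interval -0.48 to 0.01) did not pass (limma adjusted p = 0.111). The estimate was close to that of mor, with a standard error of 0.11 for osa and 0.046 for mor. Leaving out single arrays moved the osa value between -0.32 without ISWI replicate 1, where it passed (limma adjusted p = 0.0466), and -0.13 without ISWI replicate 3, where it did not (limma adjusted p = 0.261).

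None of the 3 subunits found only in PBAP passed. For polybromo, which encodes a protein with several bromodomains that bind acetylated histones, the arrays read 7.38, 7.44 and 7.19 with ISWI dsRNA, against 7.16, 7.49 and 7.39 with GST dsRNA. The 2 ranges nearly coincided, and the log2 fold change was -0.01 with a 95% interval of -0.27 to 0.25 (limma adjusted p = 0.936). This interval contains the estimate for mor, so a change of that size was not excluded for polybromo. The sign turned when GST replicate 2, GST replicate 3 or ISWI replicate 3 was left out, and without GST replicate 1 the value was -0.11.

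Bap170, the fly relative of human ARID2, read 9.46, 9.25 and 9.24 on the ISWI arrays, against 9.39, 9.45 and 9.43 on the GST arrays. ISWI replicate 1 was the highest of all 6 arrays, while replicates 2 and 3 lay below the GST range. The log2 fold change was -0.11 with a 95% interval of -0.28 to 0.07 (limma adjusted p = 0.288). Without ISWI replicate 1 the Bap170 value was -0.18, and without replicates 2 and 3 of that group in turn it was -0.07 each time (limma adjusted p = 0.0562, 0.505 and 0.531).

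The gene e(y)3 encodes SAYP, a PHD-finger protein that joins PBAP to the general transcription factor TFIID. It read 8.61, 9.15 and 8.50 on the ISWI arrays, against 8.48, 8.54 and 8.55 on the GST arrays. A single array, ISWI replicate 2, stood apart, and the other 2 ISWI arrays lay close to the GST range. This is also the array with the highest 3' minus 5' differences, whose part in the value was not tested. The log2 fold change was 0.23 with a 95% interval of -0.13 to 0.59 (limma adjusted p = 0.275), and without ISWI replicate 2 it was 0.03. The SD of e(y)3 in the ISWI group (0.35) was higher than that of 93.7% of tested probe sets, and its SD in the GST group (0.035) was at the 19.8 percentile.

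**Figure D3:**
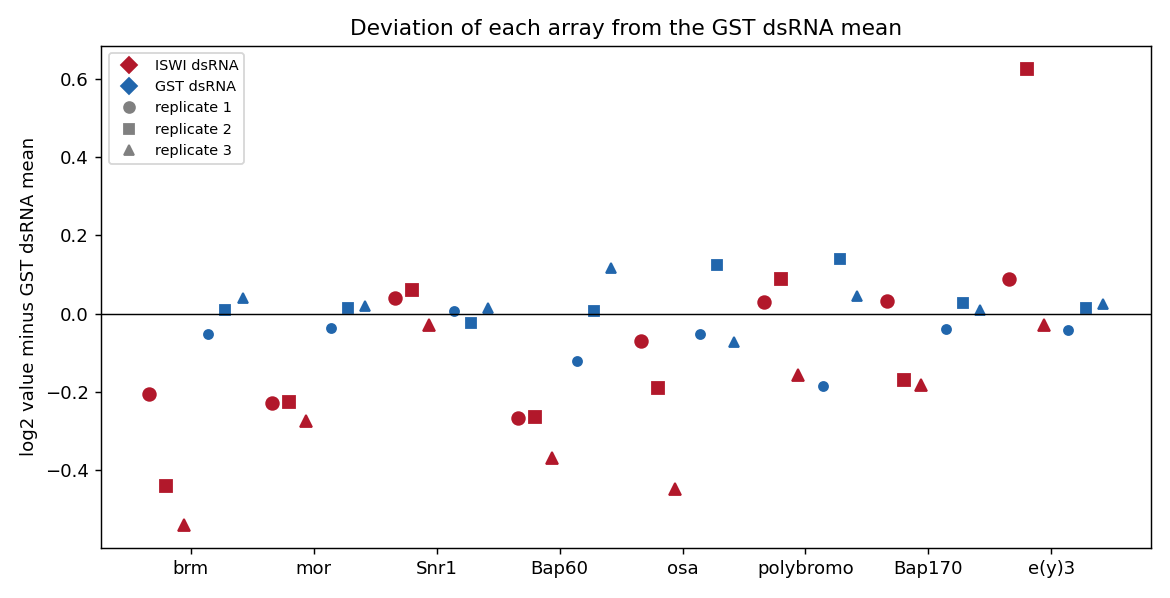
Log2 value of each subunit on each array minus the mean of the GST dsRNA arrays, with ISWI dsRNA (red, left of each name) and GST dsRNA (blue, right), and 1 symbol shape per replicate number. ISWI replicate 3 (triangles) is the lowest ISWI array for all 8 subunits, and ISWI replicate 2 of e(y)3 stands highest at 0.63.

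Within the ISWI group 1 array was low for every subunit. ISWI replicate 3 had the lowest of the 3 ISWI values for 8 of 8 subunits, whereas it was lowest for 29.7% of all tested genes. The other 2 ISWI arrays had no common order, and replicate 1 was above replicate 2 for brm and Bap170 but below it for e(y)3. ISWI replicate 3 also had the lowest Iswi signal, at 7.16 against 7.66 and 7.74 on the other ISWI arrays. A link between Iswi signal and subunit signal was not tested. In the GST group replicate 1 was lowest for 6 of the 8 subunits and for 36.5% of all tested genes. These are descriptions of single arrays, and subunits measured on 1 array are not independent of each other. The calls did not rest on ISWI replicate 3, since brm, mor and Bap60 all passed without it.

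The core subunits mor and Snr1 were also compared through the log2 ratio of their probe sets on each array, a pair chosen after its values were seen. Relative to the GST mean, mor over Snr1 stood at -0.27, -0.29 and -0.24 on the ISWI arrays, against -0.04, 0.04 and 0.01 on the GST arrays. Every ISWI array was below every GST array, with a mean shift of -0.27. The ratio does not depend on how an array is centred. The two-sided exact permutation p was 0.1, the smallest this test can give with 3 against 3, and 0.2 after Benjamini-Hochberg adjustment over all 28 pairs of subunits. Of those 28 pairs, 14 had no overlap between the groups, so the separation was not particular to mor and Snr1. The 28 pairs reuse the same 8 subunits, and the share over pairs of other genes was not computed. Among all tested genes taken singly, 54.9% had no overlap. The shift of brm over Snr1 was larger, at -0.42.

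None of the 8 subunits passed with a change of at least 1.5-fold, a class that held 12.1% of all tested genes, with 4.86% of all tested genes on its lower side. Among tested probe sets, the SD of mor was at the 6.17 percentile in the ISWI group and the 15.6 percentile in the GST group, so its call rests on close replicates. That of brm was at the 72.6 percentile in the ISWI group, and that of Bap60 at the 78.0 percentile in the GST group. The ISWI range was entirely below the GST range for brm, mor and Bap60 and entirely above it for 0 subunits, as it was for 23.7% and 31.2% of all tested genes.

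The gene whose values over the 6 arrays were most like those of mor, the subunit with the smallest adjusted p, was tmod, which encodes the actin-filament capping protein tropomodulin (Pearson r = 0.9994 over 6 arrays). It was followed by drongo, Cndp2, the maltase gene Mal-B2 and the endocytosis scaffold gene Dap160 (r from 0.9963 to 0.9983). With 2 groups of arrays such values mostly reflect the difference between the groups, and 34 of 6010 other genes reached an r of 0.99. The log2 fold changes of the 5 ran from -0.21 for drongo to -1.35 for Mal-B2. That all 5 fell follows from their choice by likeness to mor.

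Proteins reported with Brahma complexes outside the subunits above were measured for 5 of 7 listed genes, and 2 of the 5 fell and 0 rose, a share (40%) near the 41.1% of all tested genes that passed. They were d4, which encodes a double PHD-finger protein related to human DPF proteins, and its relative tth. The d4 probe set read 9.98, 10.02 and 9.85 on the ISWI arrays, against 10.22, 10.22 and 10.17 on the GST arrays, a log2 fold change of -0.25 (limma adjusted p = 0.0158). The tth probe set read 9.94, 9.77 and 9.85 on the ISWI arrays, against 10.10, 10.10 and 10.00 on the GST arrays (-0.21, limma adjusted p = 0.0335). In both genes every ISWI array lay below every GST array, as for 23.7% of all tested genes. The falls of d4 and tth were about as large as that of mor. Neither passed without GST replicate 1 or without GST replicate 2. BCL7-like had a log2 fold change of -0.27. Bicra, whose human relatives belong to a further SWI/SNF form, had -0.55, and Brd7-9 had 0.20. These 3 did not pass (limma adjusted p from 0.0698 to 0.0933). Even so, every ISWI array lay below every GST array for Bicra and above every GST array for Brd7-9.

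Of 12 tested trithorax group genes and Brahma interactors outside the complex, 2 were lower and 0 higher (16.7% passing, median log2 fold change -0.10), beside 41.1% of all tested genes. The 2 were tara, which encodes a nuclear cofactor that interacts genetically with brm (-0.42, limma adjusted p = 0.00535), and the histone demethylase gene Utx (-0.40, limma adjusted p = 0.00845). The log2 fold changes of the 10 that did not pass ran from -0.34 for Kdm5 to 0.20 for trx, the gene of a histone methyltransferase. For skd, a second probe set stood at -0.38, beside 0.06 on the one used, and did not pass either. Among these 10, the GAGA factor gene Trl stood at -0.07. Without ISWI replicate 1 the count was 4 lower. The homeotic gene probe sets that could be matched, Scr and Antp, and that of en lay below 4 on all 6 arrays, so that these genes, known in fly embryos and discs to depend on Brahma, were not tested.

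**Figure D4:**
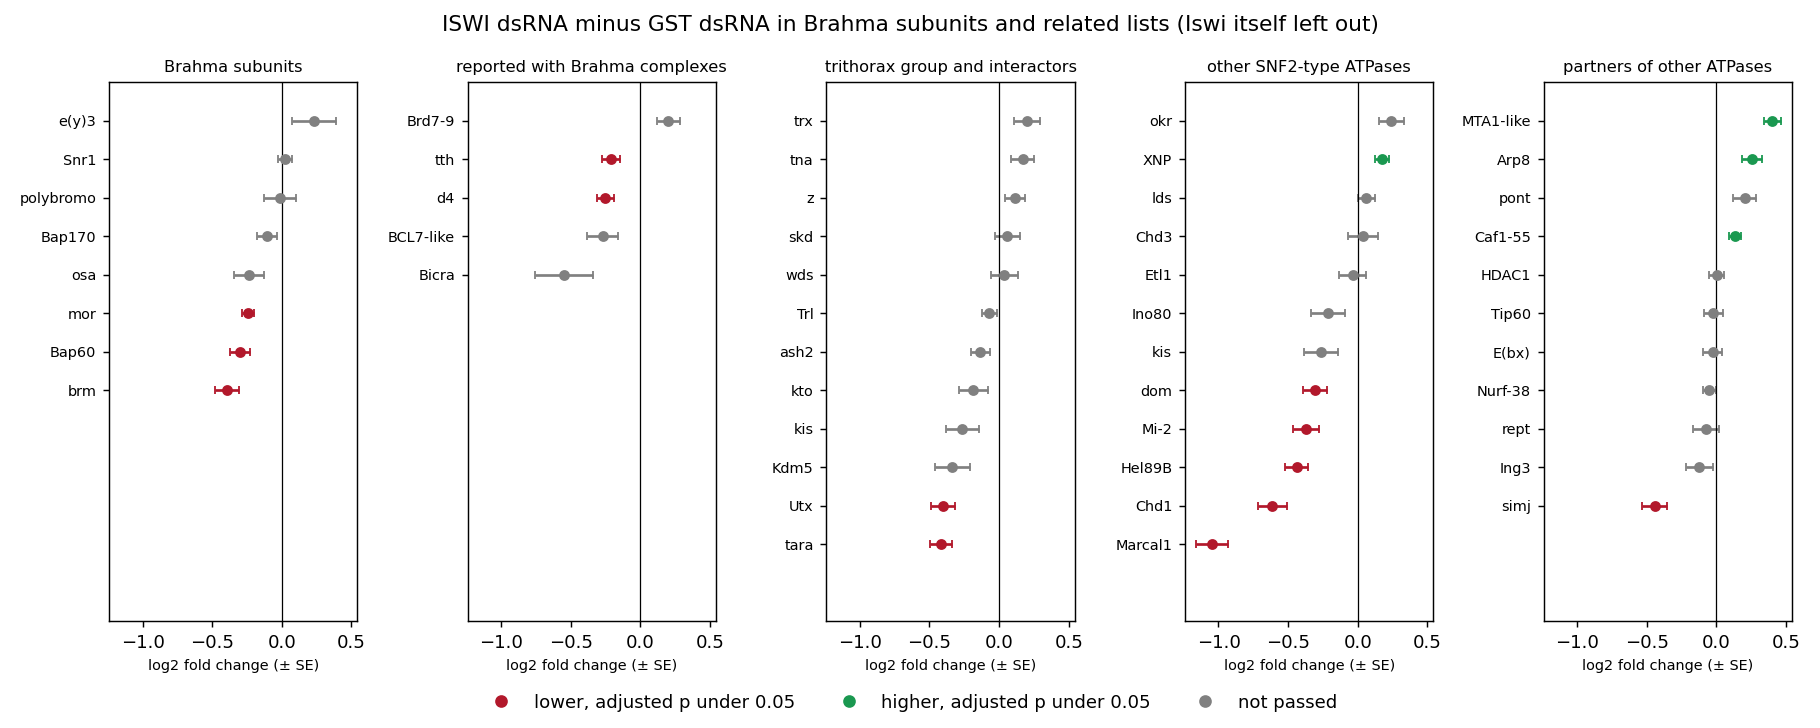
Log2 fold change ± standard error, ISWI dsRNA minus GST dsRNA (3 arrays each), for the tested Brahma subunits and 4 lists of related genes, with Iswi left out and kis shown in both lists that hold it. Red points are lower and green points higher at a limma adjusted p of 0.05, and the Brahma subunits lie between -0.39 and 0.23, inside the range of -1.05 to 0.24 of the other SNF2-type ATPases.

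Beside brm and the depleted Iswi, 12 further SNF2-type ATPase genes were tested, of which 5 were lower and 1 higher (50% passing, beside 41.1% of all tested genes, with a median log2 fold change of -0.24). The 5 were Marcal1, Chd1, Hel89B, Mi-2 and dom, the last pair named after their values were seen. The fall of brm (-0.39) was close to those of Hel89B (-0.44), Mi-2 (-0.37) and dom (-0.31, with -0.51 and -0.25 on its other probe sets, the last not passing). The gene that rose was XNP, the relative of human ATRX, at 0.17, and this call was lost when any single GST array or ISWI replicate 2 was left out and with a replicate block. The count of lower ATPases beside Iswi was 4 without a filter on dim probe sets and when any single GST array was left out, since Mi-2 did not pass without GST replicate 3 and dom did not pass in the other cases. Of 11 tested partners of SNF2-type ATPases other than brm, 3 were higher and 1 lower (36.4% passing, median log2 fold change -0.02). This list includes partners of ISWI itself, of which E(bx) and Nurf-38 did not pass and Caf1-55 did. The ISWI partners Acf, tou, Rsf-1, Chrac-14 and Chrac-16 were matched to no probe set. The lower one was simj, a subunit of the Mi-2 complex NuRD (-0.44), and the higher ones were MTA1-like (0.40), Arp8 (0.26) and Caf1-55 (0.13). Caf1-55 lay close to the threshold (limma adjusted p = 0.0493). The count of higher partners was 1 when any single GST array or ISWI replicate 2 was left out, and 2 without ISWI replicate 3, with centred arrays, with a replicate block, with a filter at 5 and under other weights or moderation.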

How the data were processed

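Per the submitters' processing notes, GCRMA made the deposited log2 values per probe set, which generally subtracts background, quantile-normalizes the arrays and condenses probes. Its version was not given in the sources used here. Quantile normalization hides a shift of total RNA. Of 18952 probe sets, 183 controls were left out. Symbols came from the platform annotation, updated through a gene table of genome Release 6, which matched 13544 of 13647 probe sets of 1 symbol. Probe sets above 4 on at least 3 of 6 arrays (7390) were tested with limma 3.58.1 (R 4.3.3), using eBayes moderation that follows the mean level, two-sided p-values and Benjamini-Hochberg adjustment over all 7390. A gene stood by its tested probe set of highest mean; each subunit had 1.

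The design calls the replicates biological, and samples were grouped by title. Members, roles and lists were chosen with earlier results of these data known. Named by rule were all subunits, Iswi, up to 4 passing genes per list by adjusted p, and the 5 genes most like the subunit of smallest adjusted p. Outside that rule, cell type markers, Mi-2, dom, XNP and some list genes that did not pass or were not tested were also named. Alternatives were other filters, scalings, variance moderation, array weights, a replicate block, a stricter threshold, gene means, and each array left out. Precision is limited by the number of arrays. The fit was also tested on simulated data. No sequence is printed.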

Additional observations from a re-analysis of the deposited data

How the results depend on the processing

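The count of Brahma subunits that passed was 3, all lower, under other filters, both scalings, other moderation, array weights and gene means. It was 2 at a threshold of 0.01. Leaving out 1 array gave 3 to 4. Over 15 settings at 0.05, brm, mor and Bap60 passed in all, with log2 fold changes of -0.49 to -0.32, -0.27 to -0.23 and -0.36 to -0.24. Snr1 turned to -0.0019 with quantile normalization applied again and to -0.0068 with centred arrays. For polybromo, leaving out 1 array gave -0.11 to 0.058, with 0.056 without GST replicate 2, 0.0090 without GST replicate 3 and 0.058 without ISWI replicate 3. None of these passed, and the cause was not tested. The median of all tested probe sets moved from 0.01 to -0.02 under both scalings. Among all probe sets, 2100 to 3023 passed without single arrays and 2236 without a filter. Same-numbered cultures did not deviate together (correlations of -0.18, 0.12 and 0.06 for replicates 1, 2 and 3), so the numbers were not taken as pairs. With a replicate block 2808 probe sets and 3 subunits passed, and 4 trithorax group genes and interactors were lower in place of 2. Without a filter, 1 of the genes reported with Brahma complexes was lower and 1 partner of other ATPases was higher. Without ISWI replicate 3, 1 trithorax group gene or interactor was higher.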
